A study of Mus musculus with 18 samples.

Results

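The 10 genes described here encode secreted or membrane proteases that cut the extracellular matrix, and the inhibitors that hold them in check. They were found as the rows of 18 count tables whose gene symbol was Adamts1, Adamts2, Adamts4, Adamts5, Adamts9, Mmp2, Mmp14, Timp1, Timp2 or Timp3, and all 10 were among the 23238 gene symbols of the tables. The genes were chosen by their levels in these same libraries, so their own differences are given as descriptions and carry no test. The libraries came from adult C57BL/6J mice that, per the labels, all carried PDGFRb-CreERT2 with the tdTomato reporter, controls (WT) included. In KO mice, Lats1 and Lats2, the kinases at the core of the Hippo pathway, were also floxed on both alleles, and tamoxifen switched on the Cre in each genotype. PDGFRb+ intestinal stromal cells (IntSCs) gave 6 WT and 5 KO libraries, and sorted lymphatic endothelial cells of the lacteals (LECs) gave 4 WT and 3 KO libraries. The Pdgfrb promoter drives the Cre, so the stromal cells and not the LECs were the target of deletion. The labels do not tie the libraries to animals. The study describes the IntSC and the LEC groups as mice pooled over independent experiments. Which library belongs to which experiment is not given in the sources used here.

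The matrix metalloproteinases (MMPs) degrade collagens and other matrix proteins, and the tissue inhibitors of metalloproteinases (TIMPs) block them in 1:1 complexes. The ADAMTS proteases are secreted enzymes with thrombospondin motifs. Some of them cut the large proteoglycans versican and aggrecan, and others trim procollagen. In the villus, fibroblast-like stromal cells and the lacteal share this matrix, and its remodelling accompanies the sprouting of lymphatic vessels.

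Each library held between 5361250 and 10549233 reads at transcript 3′ ends. Levels are CPM, counts per 1000000 reads after TMM scaling over the 18 libraries. Since every transcript was read at its end, CPM was not divided by length, and levels are compared between groups and not between genes. The lymphatic markers summed to between 9983 and 15538 CPM in LECs and to between 365 and 758 in IntSCs, and the stromal markers to between 8011 and 17349 in IntSCs and between 320.5 and 2238 in LECs. The highest stromal sum of a LEC library belonged to WT LEC replicate 1, and the other LEC libraries were at 684 or lower. Lats1 averaged 17.5 CPM in WT and 16.0 in KO IntSCs, and Lats2 averaged 72.9 and 114 CPM. Reads at the 3′ end do not check a deletion that may lie elsewhere in the gene, so the KO groups are KO by their labels. The 6 Paneth cell markers summed to between 0.678 and 37.6 CPM in WT and between 89.7 and 184 CPM in KO IntSCs, and to between 0.600 and 21.1 CPM in WT and between 38.8 and 363 CPM in KO LECs, and their part in the results was not tested. In bulk RNA, fewer cells of a type and less RNA per cell cannot be told apart.

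Adamts1 (chr16:85793827-85803113, minus strand, GRCm38) and Adamts5 (chr16:85858157-85901125, minus strand) are neighbours, 55043 bases apart. Promoters, taken as the 250 bases before and 50 after the gene start, were found in the RefSeq GRCm38.p6 table for 7 of the 10 genes, all but Adamts4, Adamts5 and Mmp2. The promoters of Adamts1 and Timp3 are shown because the levels of both were higher in every KO than in every WT IntSC library. That of Timp1 is shown because it held GGAATG, searched here as the core letters of the TEAD factors. These are the DNA-binding partners of the Hippo effectors YAP and TAZ. Capitals mark a TATA box (TATAAA) or a TEAD core (GGAATG), searched on both strands.
Adamts1, chr16:85803064-85803363, minus strand: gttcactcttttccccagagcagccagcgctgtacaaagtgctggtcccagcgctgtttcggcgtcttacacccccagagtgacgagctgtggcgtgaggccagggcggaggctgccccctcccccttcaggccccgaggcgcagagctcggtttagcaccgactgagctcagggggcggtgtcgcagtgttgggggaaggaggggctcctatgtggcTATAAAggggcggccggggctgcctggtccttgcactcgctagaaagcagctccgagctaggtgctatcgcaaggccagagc
Timp3, chr10:86300162-86300461, plus strand: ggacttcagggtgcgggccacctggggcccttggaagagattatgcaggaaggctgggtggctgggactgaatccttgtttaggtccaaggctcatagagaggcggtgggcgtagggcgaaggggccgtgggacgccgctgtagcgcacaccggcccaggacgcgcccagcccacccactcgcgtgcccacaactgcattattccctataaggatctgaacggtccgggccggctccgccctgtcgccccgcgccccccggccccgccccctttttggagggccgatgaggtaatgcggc
Timp1, chrX:20869916-20870215, plus strand: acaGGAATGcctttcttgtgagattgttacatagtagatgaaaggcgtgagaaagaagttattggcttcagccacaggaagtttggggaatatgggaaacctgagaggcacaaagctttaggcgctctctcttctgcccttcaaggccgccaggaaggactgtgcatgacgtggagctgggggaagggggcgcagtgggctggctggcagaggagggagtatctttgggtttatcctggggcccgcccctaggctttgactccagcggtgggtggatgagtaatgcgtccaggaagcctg
The Adamts1 window held a TATA box beginning 32 bases before the start and had a GC content of 64.7%, against a median of 52.7% over 32851 promoters. TATAAA stood in 13.6% of all promoters and in 1 of the 7 searched. GGAATG stood in 14.7% of all promoters and in 1 of the 7, that of Timp1, beginning 247 bases before the start. The study gives the shorter GGAAT as the TEAD consensus, and these letters were not searched. Windows without GGAATG can hold them, as that of Timp3 does on the other strand. The AP-1 letters TGANTCA stood in 7.81% of all promoters and in 0 of the 7. A match of letters is not a binding site, and no match says nothing of these factors outside the window.

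Among the proteases that cut versican and aggrecan, Adamts5 differed most between the genotypes. In WT IntSCs, Adamts5 ranged from 41.2 to 72.4 CPM with a median of 59.8. In KO IntSCs it was at 162, 161, 145, 169 and 217 CPM. Every KO library lay at more than the level of every WT library, and the mean rose from 59.5 ± 12.3 (SD, n = 6) to 171 ± 27.2 CPM (SD, n = 5), a fitted log2 difference of 1.52 ± 0.20 (SE). In WT LECs, Adamts5 was at 10.9, 0, 0.375 and 0.500 CPM, that is 115, 0, 4 and 5 reads. In KO LECs it was at 92.7, 84.0 and 60.0 CPM, from 663, 813 and 483 reads. The LEC groups did not overlap, and KO LECs reached the level of WT IntSCs. The log2 difference in LECs was 4.80 ± 1.34, and it was 8.05 without WT LEC replicate 1, the library with the high stromal sum.

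The summed stromal markers were lower in KO than in WT LECs. The 9 stromal markers summed to between 320.5 and 539 CPM in KO LECs and to between 643.5 and 2238 CPM in WT LECs, without overlap. Of the 9, 0 passed the edgeR test between the genotypes (3 at an unadjusted p under 0.05, 1 by DESeq2 and 0 by limma-voom), and each had a log2 difference below 0. Only 3 of the 9, Col3a1, Pdgfra and Col6a2, lay wholly below the WT range in KO LECs, and the ranges of the others overlapped. Col3a1 averaged 16.8 CPM in KO LECs and 143 in WT LECs, and Pdgfra averaged 0.414 and 11.8 CPM. The median of Lum went the other way, at 8.68 CPM in KO LECs and 5.69 CPM in WT LECs. Neither group had a stromal marker at 0 in a library. Among the WT LECs, the library with the highest stromal sum also held the highest Adamts5. The part of stromal RNA in the Adamts5 level of LECs was not tested.

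**Figure D1:**
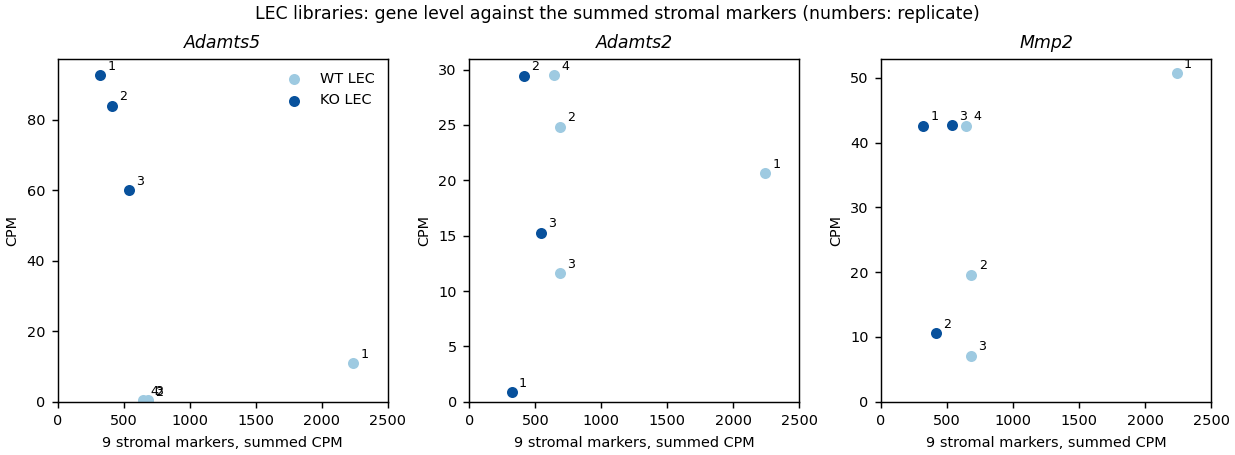
CPM of Adamts5, Adamts2 and Mmp2 in each LEC library (vertical axes) against the summed CPM of 9 stromal markers in the same library (horizontal axes), with points for 4 WT and 3 KO libraries labelled by replicate. The KO libraries hold the highest Adamts5, between 60.0 and 92.7 CPM, at the lowest stromal sums, between 320.5 and 539 CPM.

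Adamts1, which cuts versican and is known to respond quickly to stimulation, was also higher in KO IntSCs. Its level in WT IntSCs ranged from 105 to 202 CPM with a median of 166. The KO IntSC libraries held 205, 231, 318, 235 and 355 CPM. The ranges did not overlap, though the lowest KO and the highest WT library nearly met, and the log2 difference was 0.72 ± 0.20. In LECs it was lower, at 41.4, 7.29, 4.69 and 40.5 CPM in WT and at 51.0, 29.3 and 195 CPM in KO. The LEC groups overlapped, and the log2 difference of 2.05 ± 0.83 fell to 0.85 without KO LEC replicate 3. Summed CPM of 15 immediate early genes, which rise when tissue is dissociated, ranged from 7295 to 13727 in WT and from 10771 to 16532 in KO IntSCs. In LECs the sum was 4498 to 5181 in WT and 2204 to 2496 in KO. Of these 15 genes, 0 passed in IntSCs (7 at an unadjusted p under 0.05, 2 by DESeq2 and 2 by limma-voom) and 1, Junb, fell in KO LECs by 1.59 on the log2 scale (edgeR adjusted p = 0.0259). In LECs, 9 of the 15 had an unadjusted p under 0.05, and 5 passed by DESeq2 and 1 by limma-voom. The Junb call was lost in each of the 7 fits that left out a library (adjusted p from 0.0511 to 0.204). The part of these genes in the level of Adamts1 was not tested.

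Adamts4 and Adamts9, the other proteases of this kind in the list, showed no such separation. Adamts4 (chr1:171250129-171262267) ranged from 4.99 to 84.4 CPM in WT IntSCs with a median of 33.6, and stood at 33.8, 23.9, 22.5, 27.6 and 51.8 CPM in KO IntSCs. In LECs it was at 5.33, 15.7, 28.4 and 0.100 CPM in WT and at 0.140, 5.37 and 0 CPM in KO. The KO range of IntSCs lay inside the WT range, and the LEC groups overlapped. Adamts9 (chr6:92772699-92944450) ranged from 2.70 to 25.8 CPM in WT IntSCs, and KO IntSCs held 15.8, 21.2, 20.1, 10.6 and 9.04 CPM. In LECs it was read in 1 of 4 WT libraries, at 3.46 CPM, and in 1 of 3 KO libraries, at 2.07 CPM. The log2 differences in IntSCs were −0.24 ± 0.45 for Adamts4 and 0.29 ± 0.59 for Adamts9, smaller than their errors.

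Adamts2 (chr11:50602085-50807573), which removes the amino-terminal propeptide of fibrillar procollagens, was lower in most KO IntSC libraries. It ranged from 309 to 439 CPM in WT IntSCs with a median of 394, and stood at 233, 270.3, 254, 296 and 444 CPM in KO. Of the 5 KO libraries, 4 lay below the whole WT range and replicate 5 lay above it, so the groups overlapped. The log2 difference was −0.38 ± 0.18. In LECs its level was 20.7, 24.8, 11.6 and 29.5 CPM in WT and 0.839, 29.4 and 15.3 CPM in KO, which overlapped.

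**Figure D2:**
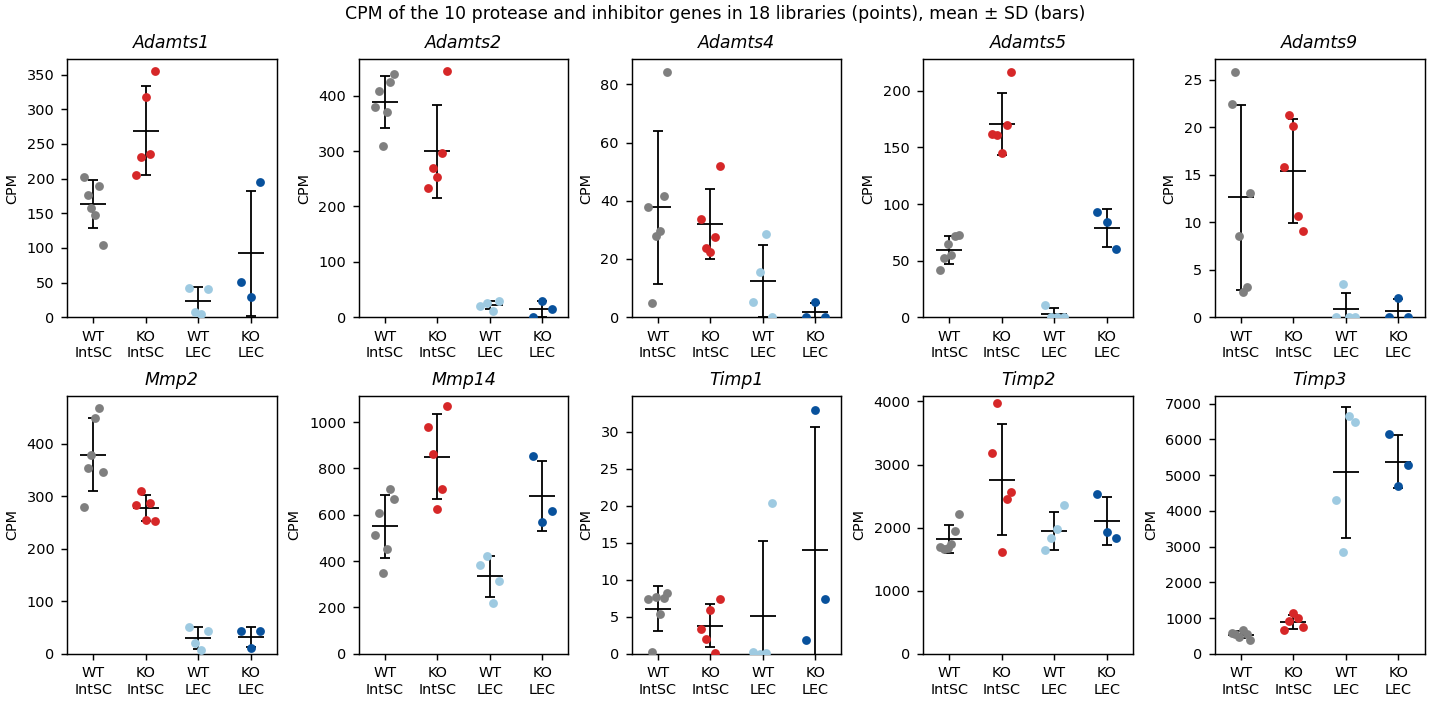
CPM (vertical axes, linear, each with its own scale) of the 10 genes in the 4 groups, with a point for each of 18 libraries and bars at the mean ± SD. Adamts5 lies apart between WT and KO in both cell types, Adamts2 and Mmp2 are highest in IntSCs, and Timp3 is highest in LECs, where it ranges from 2861 to 6655 CPM.

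Mmp14 (chr14:54431598-54442456) encodes a membrane-bound collagenase, also known as MT1-MMP, that activates the secreted gelatinase MMP2, and TIMP2 bridges the pair during activation. Mmp14 in WT IntSCs ranged from 349 to 710.3 CPM with a median of 561, and KO IntSCs held 978, 864, 627, 712 and 1072 CPM. Only KO IntSC replicate 3 lay within the WT range, and the log2 difference was 0.63 ± 0.19. In LECs, Mmp14 was at 382, 423, 217 and 313 CPM in WT and at 853, 571 and 615 CPM in KO. The LEC groups did not overlap, and the means were 334 ± 90.0 (SD, n = 4) and 679.9 ± 152 CPM (SD, n = 3), a log2 difference of 1.09 ± 0.27.

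Mmp2 (chr8:92827290-92853421) had lower values in KO IntSCs. In WT IntSCs it ranged from 279 to 469 CPM with a median of 367, and in KO IntSCs it stood at 284, 310.1, 254, 287 and 252 CPM. Of the 5 KO libraries, replicates 3 and 5 lay below the whole WT range and the other 3 within its lower part, so the groups overlapped, with a log2 difference of −0.45 ± 0.17. In LECs it was at 50.7, 19.6, 7.13 and 42.6 CPM in WT and at 42.6, 10.5 and 42.7 CPM in KO, with no separation.

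Timp2 (chr11:118301061-118355411) ranged from 1658 to 2217 CPM in WT IntSCs with a median of 1718. In KO IntSCs it stood at 3187, 3973, 1616, 2452 and 2567 CPM. Of the 5 KO libraries, 4 lay above the WT range and replicate 3 lay below it, and the log2 difference was 0.60 ± 0.18. In LECs, Timp2 was at 1637, 1833, 1970.1 and 2352 CPM in WT and at 2537, 1929 and 1834 CPM in KO, which overlapped.

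Timp3 (chr10:86300412-86349505), the inhibitor that binds to the matrix and also blocks the ADAMTS enzymes that cut aggrecan, was higher in KO IntSCs. Its level ranged from 375 to 653 CPM in WT IntSCs with a median of 550.2, and was 658, 908, 1143, 992 and 742 CPM in KO. The ranges met without overlapping, and the means were 529 ± 97.9 (SD, n = 6) and 889 ± 194 CPM (SD, n = 5), a log2 difference of 0.75 ± 0.18. LECs held far more, at 4308, 2861, 6655 and 6486 CPM in WT and at 6161, 4700.2 and 5284 CPM in KO. The KO LEC values lay within the WT range. The summed lymphatic markers in IntSC libraries ranged from 365 to 549 CPM in WT and from 583 to 758 CPM in KO without overlap. Of the 10 markers, 9 were tested between these groups and 0 passed (1 at an unadjusted p under 0.05, 1 by DESeq2 and 0 by limma-voom). Prox1, the defining factor of LECs, had a level of at most 0.172 CPM in WT and 0.149 CPM in KO IntSCs and was at 0 in 3 of 6 and 2 of 5 libraries. Higher means in KO than in WT IntSCs, each with overlapping ranges, were those of Pecam1 (88.2 and 37.7 CPM), Cdh5 (19.4 and 10.5), Flt4 (9.46 and 3.87), Pdpn (329 and 239) and Nrp2 (173 and 129.9). Lower means in KO were those of Ccl21a (12.6 and 18.1 CPM), Reln (2.07 and 3.37), Mmrn1 (1.76 and 2.19) and Lyve1 (5.39 and 5.49). The part of the lymphatic markers in the Timp3 level was not tested.

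Timp1 (chrX:20870166-20874737), an inhibitor that blocks MMP14 poorly, had a low level in most libraries. It ranged from 0.172 to 8.23 CPM in WT IntSCs and stood at 3.40, 2.06, 5.89, 0.149 and 7.44 CPM in KO. In WT LECs it was at 0.190, 0, 0.0938 and 20.3 CPM, and in KO LECs at 1.82, 33.0 and 7.33 CPM. The groups overlapped in both cell types. Timp1 lies within Syn1, and Timp3 within Syn3, genes on the other strand that reached 20.2 and 7.64 CPM in a library. The sources used here do not say whether the counting used strand.

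**Figure D3:**
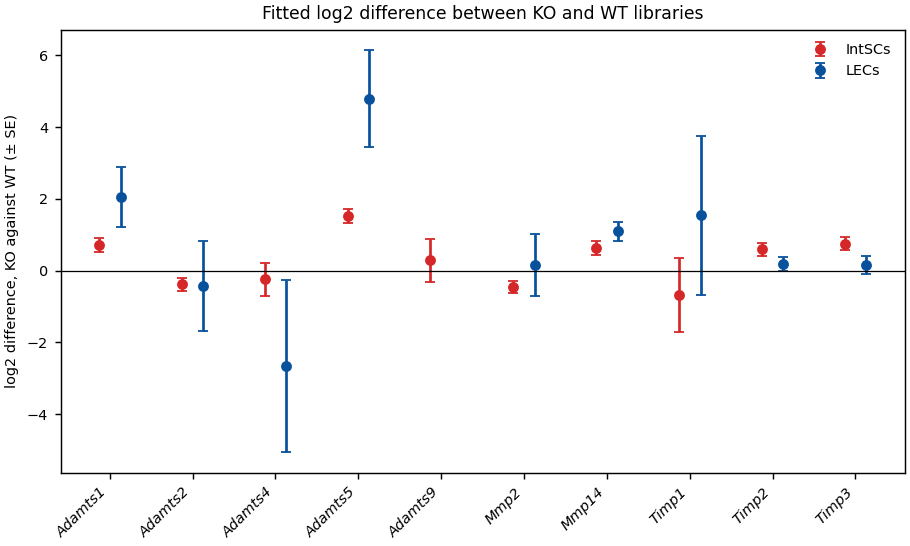
Fitted log2 difference between KO and WT libraries (vertical axis) for each gene, with bars of ± SE, in IntSCs (6 WT, 5 KO) and LECs (4 WT, 3 KO). Adamts5 lies highest in both cell types, at 1.52 and 4.80, and Adamts9 could not be tested in LECs.

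Over the whole table, 1.47% of 12421 genes passed the test (edgeR adjusted p under 0.05) between KO and WT IntSCs, 0.853% higher and 0.62% lower in KO. Of the 10 genes, 2 were past this threshold, Adamts5 and Timp3, both higher. DESeq2 called 3.15% of the table and 5 of the 10, adding Adamts1, Mmp14 and Timp2. The KO libraries lay wholly above the WT libraries for 1.63% of the table and for 3 of the 10, Adamts1, Adamts5 and Timp3. In LECs, 0.0658% of 10639 genes passed, and of the 9 genes tested 0 passed (3 at an unadjusted p under 0.05, 0 by limma-voom). DESeq2 called 2.98% of the table there and 2 of the 9, Adamts5 and Mmp14. The KO LEC libraries lay wholly above the WT ones for 3.48% of the table and for 2 of the 9, again Adamts5 and Mmp14. Nothing is read from these counts, because the genes were chosen on the same libraries. The Timp3 call in IntSCs was lost in 8 of the 11 fits that left out a library, all but those without WT replicate 4 and KO replicates 1 and 5, with log2 differences from 0.64 to 0.84 over the 11. With all 4 groups in 1 fit, neither Adamts5 nor Timp3 was past the threshold in IntSCs.

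The order of the 4 groups differed from gene to gene. For Adamts5 it ran from KO IntSC through KO LEC and WT IntSC to WT LEC, and only KO LECs and WT IntSCs, next to each other in this order, overlapped. For Adamts2 and Mmp2, both IntSC groups lay apart from and above both LEC groups, while the genotypes overlapped within each cell type. For Timp3 both LEC groups came first and overlapped, followed by KO and then WT IntSCs, each apart from its neighbour. For Adamts4, Adamts9, Mmp14, Timp1 and Timp2, every group overlapped the next in order.

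The other 36 ADAMTS, MMP and TIMP genes of the mouse tables were set beside the 10. In IntSCs, 20 of them had enough reads to test, 0 passed (6 at an unadjusted p under 0.05, 0 by limma-voom and 0 by DESeq2, which gave no adjusted p for 2), and their median log2 difference was −0.30, against 0.00 for all genes tested. In LECs, 7 could be tested and 0 passed (1 at an unadjusted p under 0.05, 0 by DESeq2 and 0 by limma-voom), with a median of −0.29 against −0.03 for all genes tested.

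In the lists of activators, of other inhibitors and clearance genes, of tolloids and ADAMs and of hyalectans, 3 genes passed between KO and WT IntSCs, and each fell. Vcan, which encodes versican, a substrate of ADAMTS1, ADAMTS4, ADAMTS5 and ADAMTS9, ranged from 206 to 356 CPM in WT and stood at 88.2, 44.7, 122, 165 and 163 CPM in KO. The groups did not overlap, and Vcan fell by 1.25 ± 0.27 on the log2 scale (edgeR adjusted p = 0.0188). Its adjusted p was 0.0502 without WT replicate 5, 0.0635 without KO replicate 1 and 0.0502 without KO replicate 3. With all 4 groups in 1 fit, the edgeR adjusted p of Vcan was 0.818. Vcan was the only 1 of 8 hyalectan and link protein genes with enough reads to test. Pcsk6 encodes PACE4, a convertase that removes propeptides, and it was the 1 of 8 convertase and plasminogen genes that passed. It ranged from 187 to 349 CPM in WT, stood at 84.2, 107, 82.1, 153 and 86.4 CPM in KO, and fell by 1.37 ± 0.22 (edgeR adjusted p = 0.0013).

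Serpinh1 was the 1 of 6 tested genes of the inhibitor and clearance list that passed. It encodes HSP47, which despite its serpin name is a chaperone of procollagen and not a protease inhibitor. Serpinh1 ranged from 1605 to 2912 CPM in WT IntSCs and stood at 1240.2, 1165, 1242, 1166 and 1397 CPM in KO, without overlap. It fell to 0.499 times the WT level in the fit, with an SE of 0.16 on the log2 scale (edgeR adjusted p = 0.00133). The stromal markers summed to between 12097 and 17349 CPM in WT and between 8011 and 13162 CPM in KO IntSCs, and 2 of the 9, Col3a1 and Col6a2, also fell, by 0.92 and 1.29. The study describes the IntSCs as sorted by the tdTomato reporter. Pdgfrb, whose promoter drove the Cre, had the opposite sign. It ranged from 215 to 680.1 CPM in WT and from 694 to 1188 CPM in KO IntSCs without overlap (log2 difference 0.86 ± 0.23, edgeR adjusted p = 0.0613). Whether those falls and the fall of Serpinh1, Vcan and Pcsk6 are linked was not tested. Of the 11 tolloid and ADAM genes tested, 0 passed in IntSCs (3 at an unadjusted p under 0.05, 0 by DESeq2 and 0 by limma-voom).

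**Figure D4:**
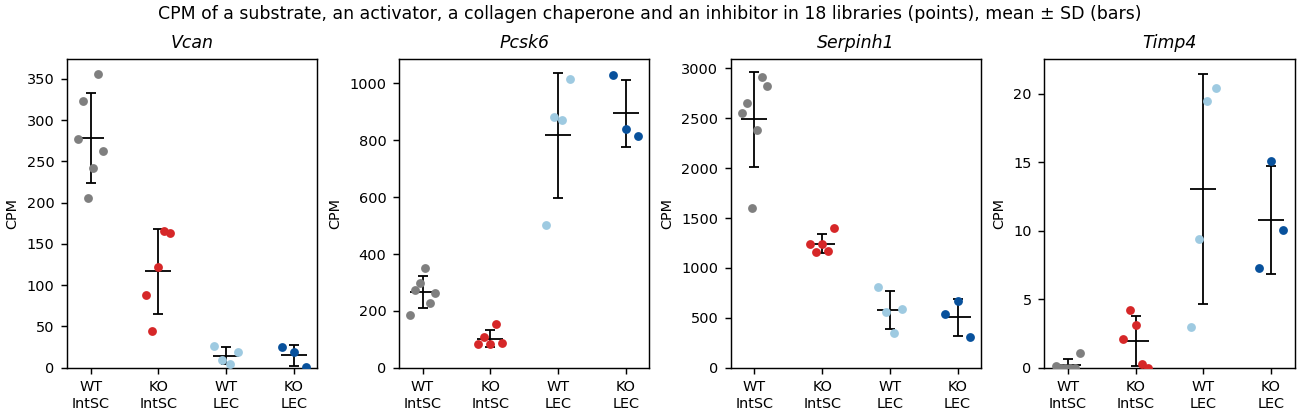
CPM (vertical axes, linear) of Vcan, Pcsk6, Serpinh1 and Timp4 in the 4 groups, with a point for each library and bars at the mean ± SD. The KO IntSC libraries lie below every WT IntSC library for Vcan, Pcsk6 and Serpinh1, and Timp4 is highest in LECs, from 2.95 to 20.4 CPM.

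Between the cell types of WT mice, several of the proteases had lower levels in LECs and Timp3 had a higher one. At the threshold, 12.3% of 12203 genes were lower in WT LECs than in WT IntSCs and 10.3% were higher, with a median log2 difference of −0.04, or −0.15 with upper-quartile scaling. Of the 10 genes, 5 were lower in LECs (Adamts1, Adamts2, Adamts5, Mmp2 and Mmp14) and 1, Timp3, was higher, counts from which nothing is read for the reason above. Adamts2 averaged 389 ± 46.7 CPM in WT IntSCs (SD, n = 6) and 21.7 ± 7.60 CPM in WT LECs (SD, n = 4), a log2 difference of −4.16 ± 0.29. The differences were −3.65 ± 0.46 for Mmp2, −4.31 ± 1.08 for Adamts5 and −2.78 ± 0.56 for Adamts1, with no overlap. Mmp14 differed least of the 5, by −0.72 ± 0.25, its ranges overlapped, and it fell short of the threshold in 8 of the 10 fits that left out a library. Timp3 averaged 529 ± 97.9 CPM in IntSCs and 5078 ± 1823 CPM in LECs, a log2 difference of 3.27 ± 0.25, while Timp2 differed by 0.10 ± 0.17, or −0.017 with upper-quartile scaling. WT LEC replicate 1 held the most stromal marker RNA, and without it the differences were −4.03 for Mmp2, −7.53 for Adamts5 and −3.21 for Adamts1. How much of the low level of these genes in LECs came from stromal RNA was not tested.

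The other ADAMTS, MMP and TIMP genes were tested in the same contrast. Of the 18 that had enough reads, 9 were lower and 1 was higher in WT LECs, with a median log2 difference of −3.24. Timp4, the fourth TIMP gene, was the higher one. It had no read in 4 of 6 WT IntSC libraries and 0.152 and 1.05 CPM in the others, against 2.95, 9.39, 19.5 and 20.4 CPM in WT LECs, without overlap (log2 difference 6.01 ± 1.61, edgeR adjusted p = 0.0139). Adamts17, Adamts14, Adamts19 and Adamts10 were the ADAMTS genes with the smallest p among those lower in LECs. Adamts14, like Adamts2 a procollagen N-proteinase, averaged 38.8 ± 18.2 CPM in IntSCs (SD, n = 6) and 0.490 ± 0.645 CPM in LECs (SD, n = 4; edgeR adjusted p = 0.000575). Adamts10, a protease tied to fibrillin microfibrils, averaged 193 ± 44.3 and 22.8 ± 19.5 CPM (edgeR adjusted p = 0.0129). Adamts17 averaged 30.1 and 0.0235 CPM and Adamts19 14.7 and 0.0543 CPM.

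Among the other MMP genes lower in LECs were Mmp10, a stromelysin, at 108 ± 40.5 CPM in IntSCs and 3.22 ± 6.23 CPM in LECs (edgeR adjusted p = 0.0073), and Mmp16, a membrane-type MMP like MMP14, at 35.7 ± 12.0 and 2.55 ± 3.03 CPM (edgeR adjusted p = 0.026). Mmp19 differed by −0.85 ± 0.28 (edgeR adjusted p = 0.0375), but this call was lost in 7 of the 10 fits that left out a library (adjusted p from 0.0543 to 0.0895). The Mmp16 call was lost without WT IntSC replicate 2 (adjusted p = 0.0522). That of Mmp10 was lost with no filter beyond 1 read (edgeR adjusted p = 0.0586). Of the 5 ADAMTS-like genes tested, which encode relatives without a protease domain, 3 were lower. Adamtsl5 and Adamtsl3 had no read in the 4 WT LEC libraries, and averaged 28.7 and 11.7 CPM in WT IntSCs. Against a floor of 3 reads per library, 0.309 CPM, they were at least 92.8-fold and 37.9-fold lower.

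**Figure D5:**
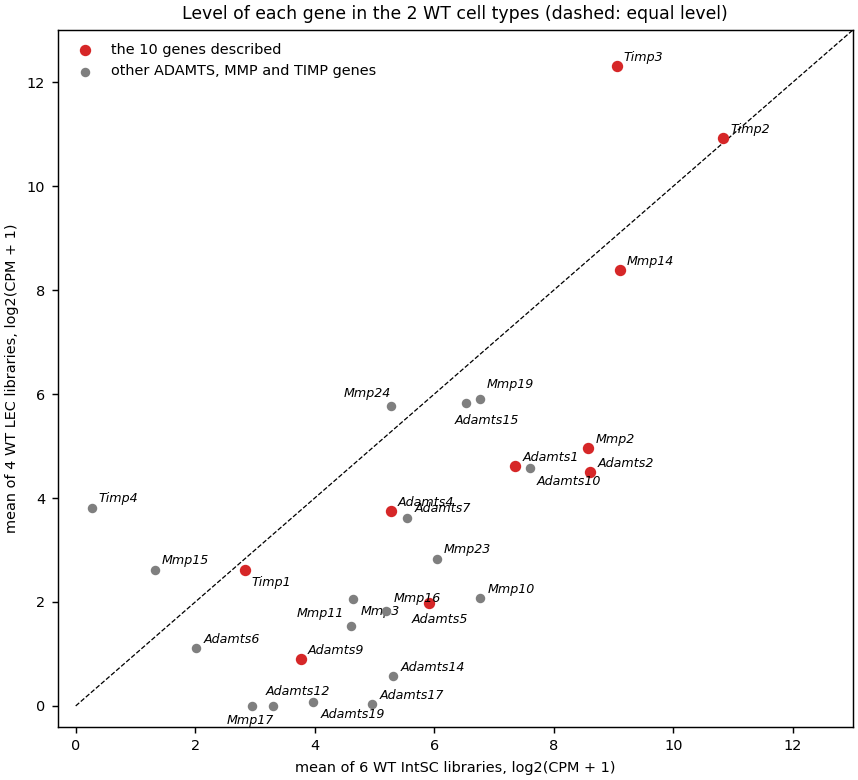
Mean level of the 10 genes and of the 18 relatives tested in 4 WT LEC libraries (vertical axis) against 6 WT IntSC libraries (horizontal axis), both as log2(CPM + 1), with a dashed line at equal levels. Timp3 and Timp4 lie farthest above the line, Timp2 lies close to it, and most ADAMTS and MMP genes lie below it.

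The activators differed in both directions. Of the 8 convertase and plasminogen genes, 2 were higher and 1 was lower in WT LECs. Pcsk6 rose from 266 ± 56.1 CPM in IntSCs to 818 ± 219.7 CPM in LECs (log2 difference 1.62 ± 0.23, edgeR adjusted p = 9.09e-05), and Plau, the urokinase that activates plasminogen, from 2.31 to 63.5 CPM (4.78 ± 1.23, edgeR adjusted p = 0.0118). Pcsk5, another convertase, was the lower one, at 123 and 14.7 CPM (edgeR adjusted p = 0.0201), a call lost without WT LEC replicate 3 or 4. Lrp1, the endocytic receptor that clears ADAMTS5 and TIMP3 from the matrix, averaged 1997 CPM in IntSCs and 67.0 CPM in LECs (−4.90 ± 0.44, edgeR adjusted p = 1.36e-06). Serpinh1 was lower in LECs too, with a log2 difference of −2.11 ± 0.25 (edgeR adjusted p = 1.75e-05), as was Vcan at −4.24 ± 0.46 (edgeR adjusted p = 6.48e-06). Of 11 tolloid and ADAM genes tested, Bmp1, the tolloid that removes the carboxyl propeptide of procollagen, its enhancers Pcolce and Pcolce2, and Adam15 were lower, the last with a call lost in 6 of 10 fits without a library, and Adam10, a sheddase, was higher, at 18.9 CPM in IntSCs and 70.6 CPM in LECs (edgeR adjusted p = 0.00101). Of the 15 immediate early genes, 8 were lower and 0 higher in LECs, among them Egr1, Jun, Zfp36 and Jund.

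An interaction term asked whether the genotypes differed by a different amount in IntSCs and in LECs, as the KO against WT difference in IntSCs minus that in LECs. Over 14015 genes 1.7% passed, and the median of all genes was 0.24 on the log2 scale, or 0.13 with RLE scaling. Of the 10 genes, 0 passed in edgeR (1 at an unadjusted p under 0.05, Adamts5), and limma-voom called 1, Adamts5, and 1.02% of the table. DESeq2 gave no adjusted p for Adamts5 and called 0 of the other 9. The interaction of Adamts5 was −3.19 ± 1.11, and −6.42 without WT LEC replicate 1. That of Timp3 was 0.66 ± 0.33 and that of Mmp14 −0.40 ± 0.34.

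Of 25 relatives tested for the interaction, 1 passed. Mmp17, a membrane-anchored MMP, had no read in the 4 WT LEC libraries and stood at 3.63, 17.0 and 0.248 CPM in KO LECs, while it averaged 6.72 CPM in WT and 8.33 CPM in KO IntSCs (edgeR adjusted p = 0.0249). By limma-voom 0 of the 25 passed, and the Mmp17 call was lost without KO LEC replicate 2 and without any of KO IntSC replicates 1, 2 and 5 (adjusted p from 0.051 to 0.0528). Pcsk6 also passed, with an interaction of −1.51 ± 0.34 (edgeR adjusted p = 0.0201). It stood at 503, 881, 871 and 1015 CPM in WT LECs and at 1029, 839 and 815 CPM in KO LECs, which overlapped. Adam19, a membrane-bound ADAM protease, passed with 7.65 ± 0.97 (edgeR adjusted p = 8.31e-05). It averaged 46.6 CPM in WT and 46.2 CPM in KO IntSCs, and stood at 19.4, 22.0, 15.8 and 20.8 CPM in WT LECs against 0.140, 0.103 and 0 CPM in KO LECs. Between KO and WT LECs, 0 of the 9 tolloid and ADAM genes tested passed (1 at an unadjusted p under 0.05, 1 by DESeq2 and 0 by limma-voom). Of the 15 immediate early genes, 6 passed, all with a positive interaction. Over the whole table, 1.42% of genes passed with a positive interaction and 0.278% with a negative one.

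The genes whose profile over the 18 libraries was most like each of the 10 were found by the root mean square difference of log2(CPM + 1), centred per gene, among 10736 genes with a mean of at least 5 CPM. The nearest were Rab14 for Timp2 (0.26), Serinc3 for Timp3 (0.27), Sept7 for Mmp14 (0.35), C4a for Adamts2 (0.47), Pwwp2b for Timp1 (0.54) and Hoxc6 for Mmp2 (0.61). Srgap1 was nearest to Adamts4 at 0.74, Gm5595 to Adamts9 at 0.75, Lurap1l to Adamts1 at 0.84 and Fbn2, which encodes a fibrillin, to Adamts5 at 0.98. Genes with smaller variation have smaller distances, so the values are not comparable between the 10.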

How the data were processed

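RNA from sorted cells was sequenced at transcript 3′ ends (QuantSeq) in 18 libraries, grouped by their titles. The authors deposited raw counts, whole reads per gene symbol, 1 table of 23282 rows per library. The study's methods name TopHat and Cufflinks and the submitters' processing notes name Bowtie2, edgeR and mm10. The counting program and annotation are not given in the sources used here. Counts of 35 symbols on several rows were summed.

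Each comparison was tested over the whole table with edgeR 4.0.16 (R 4.3.3): TMM factors, filterByExpr, robust quasi-likelihood fits of the groups compared (all 4 for the interaction), Benjamini-Hochberg adjustment and a threshold of 0.05. SEs were derived from the F statistic. CPM used TMM factors over all 18 libraries. Counting floors of 3 reads cover counting error only. Alternatives were DESeq2 1.42.0, limma-voom 3.58.1, RLE and upper-quartile factors, 1 fit of all 4 groups, other count filters, the replicate number as a block, and each library left out. Figures were drawn with matplotlib 3.10.9.

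The genes described, the lists and the tests were chosen with earlier results of these data known. Named were all 10 genes, Lats1 and Lats2, every list gene past the threshold between KO and WT, at most 4 per list and direction otherwise (smallest p, mean of at least 5 CPM), and the nearest profiles. Markers and overlapping genes outside this rule were named for context. Positions come from RefSeq GRCm38.p6, the coordinates of mm10.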

Additional observations from a re-analysis of the deposited data

Results flagged for a closer look

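In WT LECs, 3 libraries stood far from the other 3 of their group by Dixon's gap test. They were replicate 1 for Adamts5 (10.9 CPM against 0 to 0.500), replicate 2 for Adamts9 (3.46 CPM against 0) and replicate 4 for Timp1 (20.3 CPM against 0 to 0.190). The stromal marker sum of WT LEC replicate 1 stood apart too, at 2238 CPM against 643.5 to 684. In WT IntSCs, replicate 2 was low for Timp1, at 0.172 CPM against 5.39 to 8.23. The test was applied to 51 groups of values and set 5 apart, where about 2.55 would be by chance if values were normally distributed. Levels near 0 are not. With no read of Adamts9 in 3 WT LEC libraries, any read in the remaining library would have set it apart. The number set apart is therefore not read against that of chance.

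The genotype effect differed between IntSCs and LECs in the interaction test for 7 named genes outside the 10, as the KO against WT difference in IntSCs minus that in LECs. The values were −8.45 for Mmp17, −1.51 for Pcsk6 and 7.65 for Adam19. Among immediate early genes they were 2.67 for Fos, 2.14 for Junb, 1.92 for Ier3 and 2.78 for Hspa1a. By limma-voom, Mmp17 and Hspa1a were not past the threshold (adjusted p of 0.108 and 0.0634). The value of Mmp17 is fitted over a WT LEC group with no read and is not a bound. That of Adam19 rests on KO LEC libraries at 0.140 CPM or lower, under the counting floor of 0.367 CPM, and is not a bound either.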

How the results depend on the processing

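Of 1451 recomputed log2 differences of 75 gene results, 1344 kept direction and side of the threshold, 72 lost the call, 16 gained one and 19 reversed. The cause of a change was not tested. The 10 genes held 2 calls in IntSCs, 5 by DESeq2, 0 with all 4 groups in 1 fit and 1 to 2 with a library left out. In LECs they held 0 calls, 2 by DESeq2, 2 with all 4 groups in 1 fit and 0 to 1 with a library left out, Adamts5 being called without WT LEC replicate 1. For the interaction they held 0, 1 by limma-voom and 0 to 1 with a library left out. The 36 relatives held 2 calls in LECs with all 4 groups in 1 fit. Between WT cell types they held 10, 3 with the replicate block and 7 to 12 with a library left out. Their 1 interaction call became 2 with RLE factors, 4 by DESeq2, 0 by limma-voom, 0 with the block and 0 to 2 with a library left out.

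Over the whole table, 183 genes in IntSCs became 376 by DESeq2, 27 with all 4 groups in 1 fit and 99 to 186 with a library left out, the lowest being without KO IntSC replicate 3. The 7 genes in LECs became 309 by DESeq2, 12 by limma-voom, 538 with all 4 groups, 32 without a filter, 20 with a mean count of at least 10, 3 with the block and 0 to 16 with a library left out, the ends being without WT LEC replicate 3 and KO LEC replicate 2. The 2763 between WT cell types became 1596 with the block and 2233 to 2889 with a library left out. The 238 of the interaction became 1023 by DESeq2, 143 by limma-voom, 16 with the block and 161 to 461 with a library left out.

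The sign of some log2 differences turned. With a library left out, Adamts4 in IntSCs ranged from −0.48 to 0.17, turning without WT IntSC replicate 6, and it became 0.10 by limma-voom and 0.35 with the block. In LECs, Adamts2 ranged from −1.33 to 0.14, Mmp2 from −0.18 to 0.58, Timp1 from −0.073 to 7.06 and Timp3 from −0.040 to 0.30. They turned without KO LEC replicate 1 (Adamts2 and Mmp2), WT replicate 3 and KO replicate 3 (Mmp2), KO replicate 2 (Timp1) and WT replicate 2 (Timp3). Between WT cell types, Timp1 ranged from −5.74 to 0.17, turning without any of WT LEC replicates 1, 2 and 3, and Timp2 became −0.017 with upper-quartile factors. For the interaction, Adamts2 ranged from −0.43 to 1.04 and Adamts9 from −5.19 to 6.01. They turned without KO LEC replicate 1 (both), WT LEC replicate 4 and KO IntSC replicate 5 (Adamts2), and WT LEC replicate 2 and KO LEC replicate 3 (Adamts9).

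The labels do not say whether libraries with the same replicate number came from the same mouse, so they were not treated as pairs. Their deviations correlated by 0.01 on average between WT and KO IntSCs and by −0.004 between WT and KO LECs. Between WT IntSCs and WT LECs the mean was 0.03, and all 4 libraries were closest to their own number, which is a hint and not the design. Between KO IntSCs and KO LECs it was 0.0005, and 1 of 3 libraries was closest to its own number. With the replicate block, the 2 calls among the 10 genes in IntSCs were Adamts5 and Mmp14. Calls lost with the block were Timp3 in IntSCs (0.125) and Junb in LECs (0.135), each value here and below an edgeR adjusted p. Between WT cell types the lost calls were Mmp14 (0.127), Timp4 (0.0721), Adamts10 (0.0793), Adamts19 (0.0536), Adamtsl3 (0.0534), Mmp16 (0.101), Mmp19 (0.151), Pcsk5 (0.158) and Adam15 (0.129). For the interaction they were Mmp17 (0.828), Pcsk6 (0.0682), Hspa1a (0.0722) and Ier3 (0.087). With no filter beyond 1 read, calls of named genes were lost between WT cell types. These were Mmp14 (0.054), Adamts10 (0.0793), Mmp10 (0.0586), Mmp19 (0.059) and Pcsk5 (0.095). Depth limits Adamts9, with no read in 5 of 7 LEC libraries, and the relatives with too few reads to test.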
